A study of Homo sapiens with 4 samples.

Results

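Keratin genes were examined in 2 lines derived from LNCaP, a human prostate cancer cell line of luminal type, on 4 one-color arrays. The members were the 58 probes that were paired, through RefSeq accessions, with a gene named KRT and a number. They belonged to 53 genes, out of 34127 non-control probes and 19483 named genes. Both lines, TR9-MeTA14 and TR15-MeTA5, were stably transfected with a Tet repressor and with NFκB (AD)-MBD, an NFκB activation domain joined to a methyl-CpG binding domain that tetracycline induces. Each line was measured with tetracycline for 4 days (+Tet) and without it (-Tet), with 1 array per condition. Fold changes within a line therefore have no replicate check. Parental lines without the fusion were not analysed here, so tetracycline itself and the induced protein cannot be told apart. The array comparison was made to find genes that the methyl-CpG targeted activator turns on.

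Keratins are the intermediate filament proteins of epithelial cells. A filament is built from pairs of an acidic type I keratin and a basic type II keratin, and most of these genes lie in a type I cluster on chromosome 17 and a type II cluster on chromosome 12. The choice of keratins marks the kind of epithelium: KRT8 and KRT18 with KRT7 or KRT19 in simple (luminal) epithelia, KRT5 and KRT14 in basal cells, KRT1 and KRT10 in differentiating epidermis, and a separate group of keratins in the hair shaft. In the prostate, luminal secretory cells make KRT8 and KRT18 and basal cells make KRT5 and KRT14.

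The 53 genes were 28 of type I and 25 of type II, with 27 on chromosome 17 and 26 on chromosome 12. They comprised 5 luminal (simple) keratins, 20 basal and stratified keratins, 15 hair keratins, 9 keratins of the hair root sheath and 4 others. For KRT8, KRT18, KRT23, KRT40 and KRT83 there were 2 probes each, and the probe with the higher mean signal stood for the gene. KRT34 and KRT86 had no paired probe, and 9 probes of keratin pseudogenes were left out. Signals are given as deposited (background-subtracted processed intensities). Fold changes are ratios after each array was divided by the 75th percentile of its probes, which lowered a +Tet to -Tet ratio by a factor of 1.26 in TR9-MeTA14 and 1.48 in TR15-MeTA5. Signals of different probes cannot be set against each other as amounts of RNA.

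The promoter letters of 4 genes are shown because the induced protein was made to bind methylated CpG. Each line gives the 250 bases before the transcription start from RefSeq (GRCh38.p14), read 5′ to 3′ on the strand of the gene, with CpG in capitals. KRT24 and KRT26 lie close together, with KRT25 between them, and their probes were called higher with tetracycline in TR9-MeTA14, KRT5 is the basal keratin whose probe was near background throughout, and PRPH (peripherin, a non-keratin intermediate filament of neurons) was called higher in both lines.
KRT24, chr17:40703753-40704002, minus strand: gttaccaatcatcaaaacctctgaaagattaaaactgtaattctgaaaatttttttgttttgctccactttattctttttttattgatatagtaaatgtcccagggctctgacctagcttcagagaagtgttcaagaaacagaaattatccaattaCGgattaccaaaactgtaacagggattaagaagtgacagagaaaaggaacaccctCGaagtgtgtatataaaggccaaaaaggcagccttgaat
KRT26, chr17:40772202-40772451, minus strand: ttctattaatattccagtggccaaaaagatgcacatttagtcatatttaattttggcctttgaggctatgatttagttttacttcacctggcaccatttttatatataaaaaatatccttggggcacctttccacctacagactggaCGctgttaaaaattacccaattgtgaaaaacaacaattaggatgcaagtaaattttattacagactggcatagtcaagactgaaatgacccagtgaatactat
KRT5, chr12:52520395-52520644, minus strand: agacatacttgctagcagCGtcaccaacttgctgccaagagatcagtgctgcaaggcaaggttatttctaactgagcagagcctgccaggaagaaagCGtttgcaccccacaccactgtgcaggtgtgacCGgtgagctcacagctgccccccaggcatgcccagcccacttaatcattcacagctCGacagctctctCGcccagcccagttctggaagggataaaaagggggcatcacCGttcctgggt
PRPH, chr12:49294897-49295146, plus strand: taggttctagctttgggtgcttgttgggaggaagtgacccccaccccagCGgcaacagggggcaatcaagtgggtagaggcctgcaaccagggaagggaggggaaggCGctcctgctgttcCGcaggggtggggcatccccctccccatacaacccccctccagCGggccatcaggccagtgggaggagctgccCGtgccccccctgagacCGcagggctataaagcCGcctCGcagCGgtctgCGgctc

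These stretches held 2 CpG in KRT24, 1 in KRT26, 6 in KRT5 and 10 in PRPH. They were picked for display and do not show whether CpG content went with a rise. DNA methylation at these sites was not measured on the arrays. A promoter window of 300 bases, 250 before and 50 after the start, was at hand for 33 of the 53 keratin genes, or 62.3%. This is under the 80% set as the minimum for describing a set, so a count over all keratins is void. The hair keratins (13 of 15, 86.7%) and the root sheath keratins (8 of 9, 88.9%) had enough. Hair keratin windows held between 0 and 7 CpG, with a median of 2, and root sheath windows held between 1 and 8, also with a median of 2. None of these 21 windows reached 10 CpG, which 56.0% of all 27305 promoter windows did, with a median of 14. Among the windows of 15176 genes on the arrays, 73.8% reached 10 CpG, with a median of 22. Among 413 genes above background only with tetracycline in both lines, 72.9% reached it, with a median of 20. The difference between these shares was not tested. The letters TATAAA, searched on both strands, stood in 9 of the 13 hair keratin windows (69.2%) and in 6 of the 8 root sheath windows (75%), against 12% of all promoters. The hair keratin windows were thus poor in CpG and rich in these letters.

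Keratin transcripts were detected less widely than other genes. A probe counted as detected when Feature Extraction's flag placed it well above background on an array. On all 4 arrays this held for 18 of the 53 keratin genes (34.0%), against 65.1% of all named genes, and on no array for 24 (45.3%), against 19.6%. The other 11 were above background on 1 to 3 arrays. By array, 21 keratin genes were above background in TR9-MeTA14 -Tet, 27 in TR9-MeTA14 +Tet, 18 in TR15-MeTA5 -Tet and 22 in TR15-MeTA5 +Tet.

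The classes differed in how many members were detected. Of the 5 luminal keratins, KRT7, KRT8, KRT18 and KRT19 were above background on all 4 arrays, and KRT20, an intestinal and urothelial keratin, in TR15-MeTA5 +Tet only. Of the 20 basal and stratified keratins, 7 were above background on all 4 arrays (KRT3, KRT4, KRT9, KRT10, KRT15, KRT76 and KRT78), 3 on some (KRT1, KRT13 and KRT16) and 10 on none. The 5 hair keratins above background on all 4 arrays were KRT31, KRT39, KRT81, KRT83 and KRT85, with KRT32 and KRT33A on some arrays and 8 on none. KRT73 was the only 1 of 9 root sheath keratins above background on all 4 arrays, while KRT26 and KRT74 were so on some. KRT80, KRT23, KRT24 and KRT222 made up the others, of which KRT80 was above background on all 4 arrays. No test was made between the classes.

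**Figure D1:**
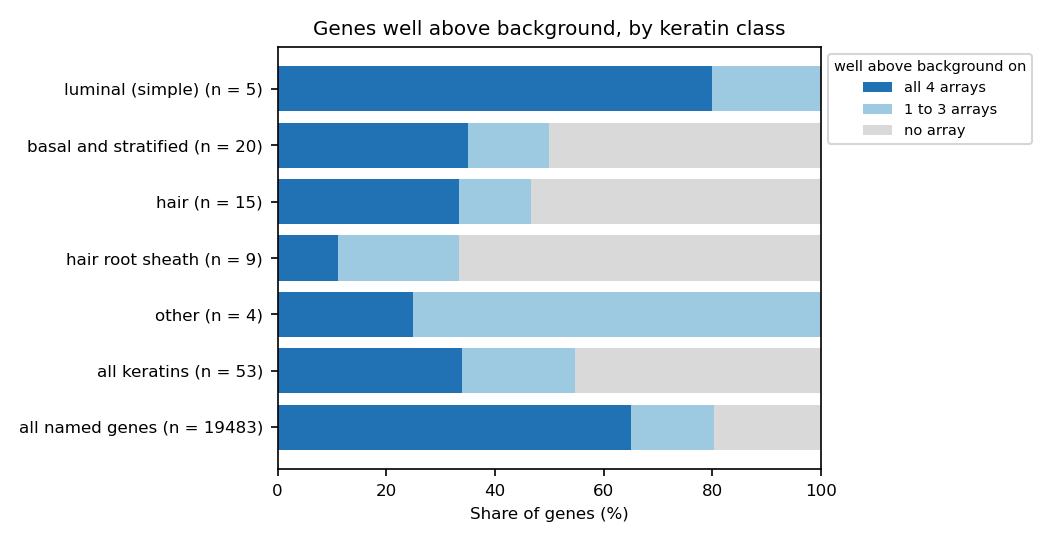
Share of genes (%) well above background on all 4 arrays, on 1 to 3 arrays or on no array, for each keratin class, all 53 keratins and all 19483 named genes. Bars start at 0; 34.0% of keratins and 65.1% of all genes were above background on all 4 arrays.

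The basal pair was not detected, with or without tetracycline. The KRT5 probe read 3.51 in TR9-MeTA14 -Tet, 3.14 in TR9-MeTA14 +Tet, 3.45 in TR15-MeTA5 -Tet and 4.49 in TR15-MeTA5 +Tet. The KRT14 probe read 10.8, 4.8, 15.8 and 22.7 on the same arrays, in this order. All 8 readings were not well above background, so no fold is given. KRT17, KRT6A, KRT6B and KRT6C, keratins of basal and activated keratinocytes, were likewise above background on no array. The 3 KRT6 genes are close copies of each other, and their probes may share signal.

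The luminal pair was bright on all 4 arrays. For KRT18, the type I partner of KRT8, the signal was 47988 in TR9-MeTA14 -Tet, 33298 in TR9-MeTA14 +Tet, 37462 in TR15-MeTA5 -Tet and 35612 in TR15-MeTA5 +Tet. After scaling it was 1.81-fold lower with tetracycline in TR9-MeTA14 and 1.56-fold lower in TR15-MeTA5, under the 2-fold that counts as a call. Its other probe gave 1.77-fold and 1.59-fold lower, close to the first. In RNA of whole cultures, fewer cells making a transcript and less of it per cell cannot be told apart. KRT18 was lower in both lines under each scaling tried, with log2 changes between -0.86 and -0.42 in TR9-MeTA14 and between -0.65 and -0.27 in TR15-MeTA5.

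KRT8 differed from its partner. Its signals were 8536 in TR9-MeTA14 -Tet, 12714 in TR9-MeTA14 +Tet, 6966 in TR15-MeTA5 -Tet and 8097 in TR15-MeTA5 +Tet. The scaled log2 change was 0.24 in TR9-MeTA14 and -0.35 in TR15-MeTA5, and the other KRT8 probe gave 0.45 and -0.44. That probe was much dimmer, at 98.9, 170, 63.6 and 69.3 in the same order. It was read on the same arrays with the same scaling, so it is not a replicate. Both probes were therefore higher with tetracycline in one line and lower in the other, each by less than 2-fold. With scaling on spike-in probes the change in TR15-MeTA5 turned to 0.02.

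KRT19, a type I keratin of simple epithelia, was the only keratin called lower in both lines. Its signal was 1050 in TR9-MeTA14 -Tet, 402 in TR9-MeTA14 +Tet, 1618 in TR15-MeTA5 -Tet and 1028 in TR15-MeTA5 +Tet. Each +Tet array read below the -Tet array of its line, though the TR15-MeTA5 +Tet signal was close to that of TR9-MeTA14 -Tet. The fold was 3.28 lower in TR9-MeTA14 and 2.33 lower in TR15-MeTA5. Over both lines, limma with the line as a block gave a log2 change of -1.47 ± 0.28 (SE, n = 2 lines) and an adjusted p of 0.0973, which misses the threshold of 0.05. This fit had 1 residual degree of freedom. With spike-in scaling the log2 change in TR15-MeTA5 was -0.85, under 2-fold, and without a filter on dim probes the adjusted p was 0.0377.

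KRT7, a type II simple keratin, read 5560 in TR9-MeTA14 -Tet, 9254 in TR9-MeTA14 +Tet, 3231 in TR15-MeTA5 -Tet and 6268 in TR15-MeTA5 +Tet. It was 1.32-fold higher in TR9-MeTA14 and 1.31-fold higher in TR15-MeTA5, below the 2-fold limit. Among the 4 luminal keratins above background on all arrays, KRT18 and KRT19 were thus lower in both lines and KRT7 higher, and KRT8 went opposite ways. KRT20, the remaining luminal keratin and also of type I, was above background in TR15-MeTA5 +Tet only, at 45, which is at least 1.97-fold higher than without tetracycline.

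**Figure D2:**
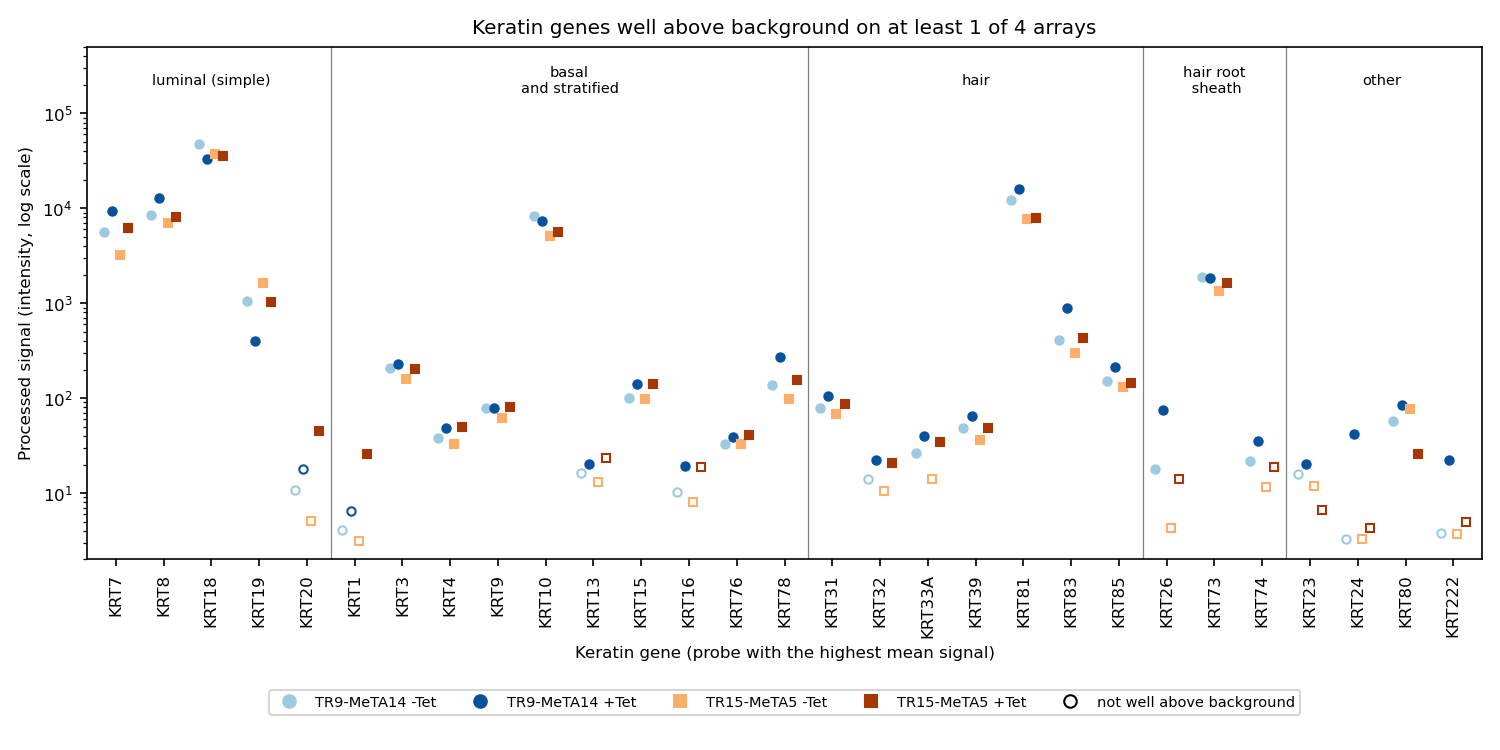
Processed signal (intensity, log axis) of the 29 keratin genes well above background on at least 1 array, by class, with 1 point per array. Filled points are well above background and open points are not; KRT19 reads 1050 and 402 in TR9-MeTA14 and 1618 and 1028 in TR15-MeTA5 (-Tet and +Tet, before scaling).

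Keratins called with tetracycline numbered at most 2 per line and direction. In TR9-MeTA14, 26 keratin genes could be compared, and 2 were at least 2-fold higher (KRT24 and KRT26, 7.69%), against 16.8% of all compared genes. KRT19 was the 1 keratin at least 2-fold lower there (3.85%), against 15.1%. In TR15-MeTA5, none of 21 was at least 2-fold higher, against 9.78%, and 2 were lower (KRT19 and KRT80, 9.52%), against 2.21%. Of the 19 compared in both lines, none was higher in both, against 8.21%, and 1 (KRT19, 5.26%) was lower in both, against 0.838%.

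The limma test over both lines called none of the 22 keratins tested in either direction, against 3.22% of all genes called higher and 0.0138% called lower. At an unadjusted p under 0.05 there were 2 (KRT19 and KRT26), against 21.5% of all genes tested. KRT26 had an adjusted p of 0.215, and its TR15-MeTA5 signals in that fit were not above background. Over the 18 keratins above background on all 4 arrays, the median log2 change was 0.08 in TR9-MeTA14 and -0.24 in TR15-MeTA5, where all genes so detected had -0.14 and -0.19. The range was from -1.72 to 0.81 in TR9-MeTA14 and from -2.13 to 0.39 in TR15-MeTA5.

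The detected members of the basal and stratified class differed little between -Tet and +Tet. This class was set by hand and holds differentiation and site-specific keratins, such as KRT3, KRT4 and KRT9, beside those of basal cells. Their 7 log2 changes lay between -0.51 and 0.62 in TR9-MeTA14 (median -0.09) and between -0.41 and 0.08 in TR15-MeTA5 (median -0.18), and none reached 2-fold. KRT10, a type I keratin of differentiating epidermis, read 8368 in TR9-MeTA14 -Tet, 7372 in TR9-MeTA14 +Tet, 5105 in TR15-MeTA5 -Tet and 5662 in TR15-MeTA5 +Tet. After scaling it was 1.43-fold and 1.33-fold lower with tetracycline. KRT1, its type II partner, was above background in TR15-MeTA5 +Tet only, at 25.7, which is at least 1.13-fold higher than in TR15-MeTA5 -Tet. KRT10 was thus detected on 3 arrays where its partner was not.

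KRT15, a keratin of basal cells and hair follicle stem cells, read 141 on both +Tet arrays and no lower than 97.9 on the -Tet arrays. The log2 changes were 0.15 and -0.04, and it was above background on all 4 arrays, where KRT14 was on none. KRT78, a type II keratin, read 139, 269, 98.4 and 154 in the same order. It was 1.54-fold higher in TR9-MeTA14 and 1.06-fold higher in TR15-MeTA5, and the latter turned to a log2 change of -0.02 with quantile normalization. KRT3 and KRT76 were between 1.07-fold and 1.2-fold lower, KRT9 was 1.28-fold and 1.15-fold lower, and KRT4 had log2 changes of 0.01 and 0.04.

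Hair keratins were detected in both lines without tetracycline. KRT81, a type II hair shaft keratin, read 12184 in TR9-MeTA14 -Tet, 16110 in TR9-MeTA14 +Tet, 7639 in TR15-MeTA5 -Tet and 7978 in TR15-MeTA5 +Tet. Scaled, it was 1.05-fold higher in TR9-MeTA14 and 1.42-fold lower in TR15-MeTA5. KRT83, its close relative, read 407, 897, 302 and 427, or 1.75-fold higher in TR9-MeTA14 and 1.05-fold lower in TR15-MeTA5. Its other probe was not above background on any array, and with the mean of both probes the log2 changes were 0.15 and 0.35 in place of 0.81 and -0.06. KRT81, KRT83 and KRT86 are highly alike in sequence, so signal at one of these probes may come from another.

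The other hair keratins above background on all 4 arrays were dimmer. KRT85, a type II hair keratin, read 152 in TR9-MeTA14 -Tet, 214 in TR9-MeTA14 +Tet, 130 in TR15-MeTA5 -Tet and 143 in TR15-MeTA5 +Tet. The signals of KRT31 and KRT39, both type I, lay between 68.7 and 105 and between 36.1 and 65.4. All 5 had log2 changes above 0 in TR9-MeTA14 (median 0.10) and below 0 in TR15-MeTA5 (median -0.22), but none was called. These signs depended on the scaling: with quantile normalization 3 of the 5 were above 0 in TR9-MeTA14, and with spike-in scaling 3 of the 5 were above 0 in TR15-MeTA5.

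KRT32, a type I hair keratin, was the only keratin not above background on either -Tet array and above it on both +Tet arrays. It read 14.2 in TR9-MeTA14 -Tet, 22.5 in TR9-MeTA14 +Tet, 10.6 in TR15-MeTA5 -Tet and 20.5 in TR15-MeTA5 +Tet, near the detection limit throughout. This was 1 of 32 keratins off on both -Tet arrays, against 10.9% of all genes. In TR9-MeTA14, 6 of 32 such keratins came above background with tetracycline (KRT13, KRT16, KRT23, KRT24, KRT32 and KRT222), against 26.9%. In TR15-MeTA5, 4 of 35 did (KRT1, KRT20, KRT32 and KRT33A), against 17.7%. The lowest signals flagged as well above background were 15.5, 13.9, 15.4 and 19.2 on the 4 arrays, so a probe can cross this limit with a small change.

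The keratins called higher in TR9-MeTA14 lay close together on chromosome 17. KRT24, a type I keratin, read 3.31 in TR9-MeTA14 -Tet, 41.9 in TR9-MeTA14 +Tet, 3.27 in TR15-MeTA5 -Tet and 4.3 in TR15-MeTA5 +Tet. It was above background on the TR9-MeTA14 +Tet array alone, at least 2.15-fold higher than without tetracycline. KRT26, a type I keratin of the hair root sheath, read 18.1, 75.1, 4.29 and 14 in the same order. It was 3.31-fold higher in TR9-MeTA14 and above background on neither TR15-MeTA5 array. Its TR9-MeTA14 -Tet signal lay near the lowest flagged as well above background there, 15.5. Both calls were lost with normexp (log2 changes of 0.32 for KRT24 and 0.48 for KRT26), and that of KRT24 also with quantile normalization (0.79). A filter on all 4 arrays leaves both genes out by construction, since neither was above background on all of them.

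KRT222, next to KRT24, read 3.84 in TR9-MeTA14 -Tet, 22.4 in TR9-MeTA14 +Tet, 3.75 in TR15-MeTA5 -Tet and 4.93 in TR15-MeTA5 +Tet, which is at least 1.15-fold higher in TR9-MeTA14. KRT25 lies between KRT24 and KRT26, and KRT27 and KRT28 follow them. These 3 were above background on no array, so detected genes were interspersed with undetected ones. KRT10, further along, was detected on all 4 arrays, and KRT20, beyond KRT12, read 10.9, 18.1, 5.11 and 45. SMARCE1, a chromatin remodeling gene beside KRT222, was above background on all 4 arrays, with signals between 3163 and 4457.

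**Figure D3:**
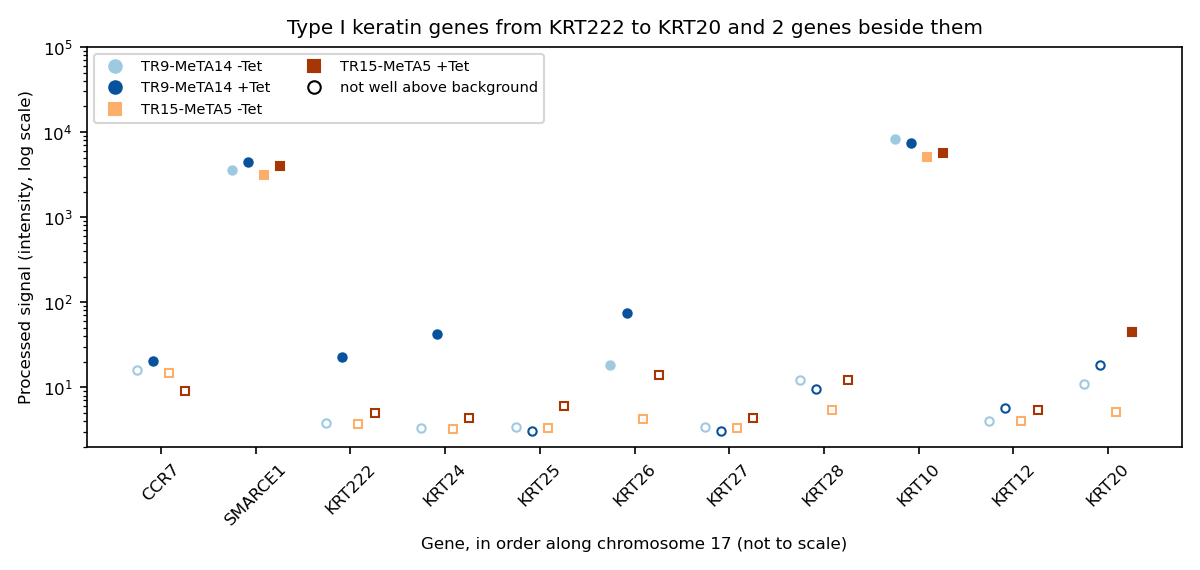
Processed signal (intensity, log axis) of the type I keratin genes from KRT222 to KRT20, in order along chromosome 17 but not to scale, with CCR7 and SMARCE1 beside them. Open points are not well above background; KRT222, KRT24 and KRT26 read 22.4, 41.9 and 75.1 in TR9-MeTA14 +Tet.

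KRT80, a widely expressed type II keratin, differed most between the lines among keratins on all 4 arrays. Its signal was 57.6 in TR9-MeTA14 -Tet, 84.1 in TR9-MeTA14 +Tet, 76.5 in TR15-MeTA5 -Tet and 25.8 in TR15-MeTA5 +Tet. The TR15-MeTA5 +Tet array was the lowest of the 4. It was 1.16-fold higher with tetracycline in TR9-MeTA14 and 4.39-fold lower in TR15-MeTA5. With normexp the log2 change in TR15-MeTA5 was -1.01, in place of -2.13, and the +Tet signal lay near the lowest flagged as above background there, 19.2. With 1 array per condition this difference could not be tested.

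KRT73, a type II root sheath keratin, read 1879, 1859, 1346 and 1651 in the same order, 1.27-fold and 1.21-fold lower after scaling. KRT74 was above background on the 2 TR9-MeTA14 arrays only, at 21.9 and 35.2, or 1.28-fold higher. KRT33A was 1.19-fold higher in TR9-MeTA14 and at least 1.53-fold higher in TR15-MeTA5. KRT13, KRT16 and KRT23 each came above background on the TR9-MeTA14 +Tet array alone, at 20.2, 19.5 and 20.4. None of these was called.

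Without tetracycline, 2 of 19 keratins compared were called higher in TR15-MeTA5, KRT19 at 2.59-fold and KRT80 at 2.24-fold. This share of 10.5% was near the 8.17% of all genes. None was called lower, against 5.19%. Of the 18 keratins above background on all 4 arrays, 17 had a log2 difference above 0, with a median of 0.39, where all genes had 0.12. This direction rested on the scaling. Spike-in scaling shifts log2 ratios of +Tet over -Tet by 0.11 in TR9-MeTA14 and 0.37 in TR15-MeTA5, and the untreated comparison by -1.06, after which 2 of the 18 were above 0 and neither KRT19 nor KRT80 was called.

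Several other intermediate filament genes, listed for comparison, were far higher with tetracycline. Of the 14 compared, 8 passed 2-fold upward in each line (57.1%, against 8.21% of all genes). They were VIM (vimentin, of mesenchymal cells), PRPH, INA and the neurofilament genes NEFL, NEFM and NEFH of neurons, NES (nestin, of progenitor cells) and SYNM (synemin). PRPH read 920 in TR9-MeTA14 -Tet, 43302 in TR9-MeTA14 +Tet, 215 in TR15-MeTA5 -Tet and 13403 in TR15-MeTA5 +Tet, 37.4-fold and 42.2-fold higher. VIM read 190, 2372, 92.2 and 1697, or 9.93-fold and 12.5-fold higher. NEFM and NEFH were above background on the +Tet arrays only, and at least 69.3-fold higher in each line. Limma called 5 of the 14 tested higher (adjusted p of 0.0176 for VIM, 0.0139 for PRPH, NEFM and NEFH, and 0.0404 for NES). The difference between these genes and keratins was not tested. With normexp background correction, 5 of the 8 still passed 2-fold in both lines (VIM, PRPH, NEFM, NEFH and NES).

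**Figure D4:**
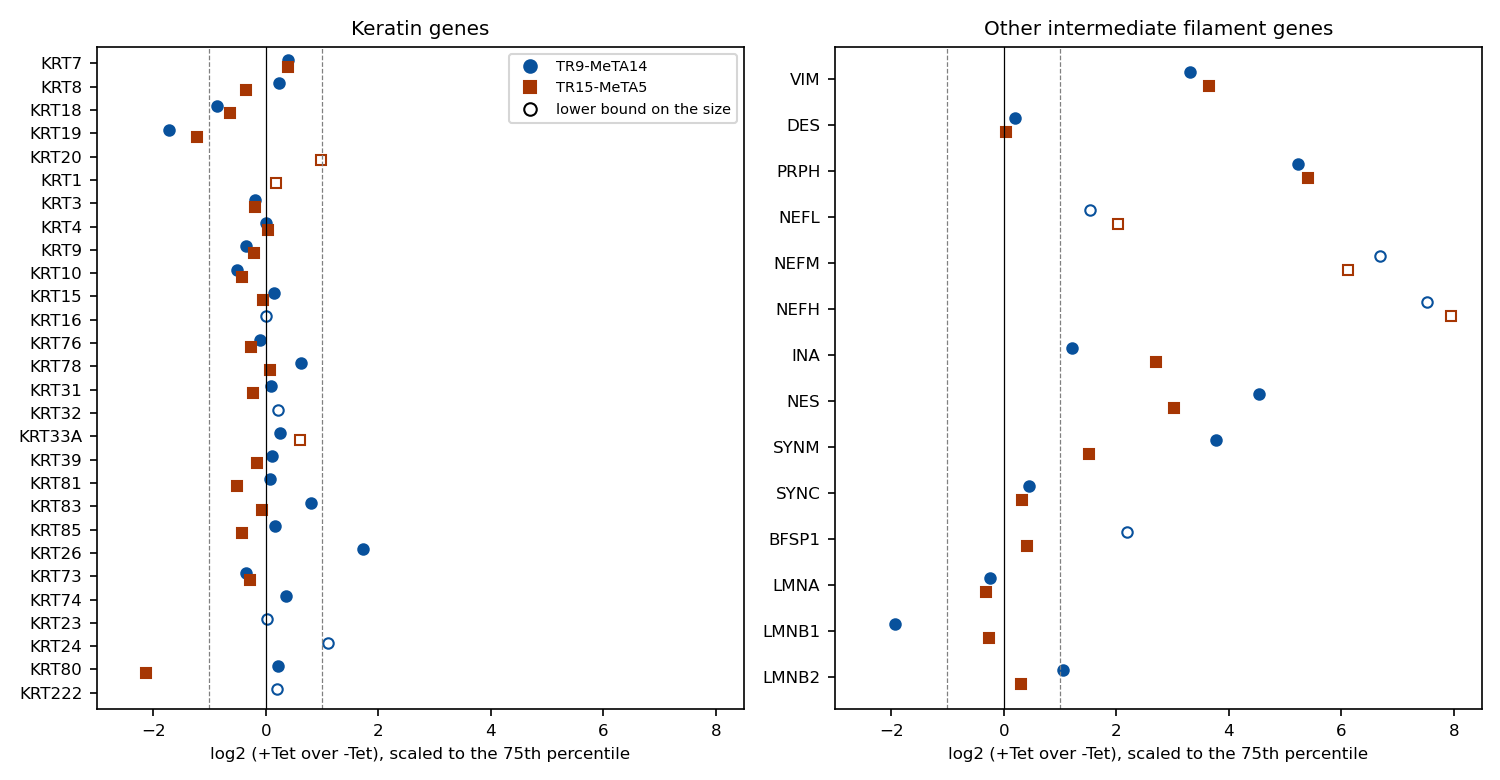
Scaled log2 ratio of +Tet over -Tet in each line for the keratin genes with a fold in at least 1 line (left) and the other intermediate filament genes (right). Open points are lower bounds on the size and dashed lines mark 2-fold; KRT19 lies at -1.72 and -1.22, and PRPH, NEFM and NEFH lie above 5 in both lines.

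Genes that anchor keratin filaments at desmosomes and hemidesmosomes were split. Of 17 compared, 5 passed 2-fold upward in each line (29.4%, against 8.21% of all genes): PKP1 (plakophilin), PPL (periplakin), PLEC (plectin), EPPK1 (epiplakin) and ITGB4 (an integrin of hemidesmosomes). This count was 4 with quantile normalization and 3 with normexp. In TR9-MeTA14, 6 of 18 were at least 2-fold lower (33.3%, against 15.1%): the plakophilins PKP2 and PKP4, the desmocollins DSC1, DSC2 and DSC3, and the integrin ITGA6. None was 2-fold lower in both lines, but 3 were with quantile normalization. PLEC was 17.5-fold higher in TR9-MeTA14 and 4.58-fold higher in TR15-MeTA5, and ITGB4 5.33-fold and 6.67-fold. Limma called ITGB4 alone of 18 tested (5.56%, against 3.22% of all genes; adjusted p = 0.0302). The median log2 change of the 14 above background on all 4 arrays was -0.13 and -0.19, close to that of all genes. Of the cornified envelope genes, 2 of 9 compared were higher in both lines (22.2%, against 8.21% of all genes), SFN and CALML5. Limma called none of 9 (against 3.22% called higher), with 2 at an unadjusted p under 0.05 (22.2%, against 21.5%).

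The labelled cell type was checked against markers. All 10 prostate luminal markers, KLK3 (prostate-specific antigen) among them, were above background on all 4 arrays. All 10 had log2 changes below 0 with tetracycline in both lines (medians -1.95 and -0.68), under each of the 4 scalings. A change below 0 was also common over all genes so detected. Of these 12690, 5423 were above 0 in TR9-MeTA14 and 4009 in TR15-MeTA5 (medians -0.14 and -0.19). In TR9-MeTA14, 7 of the 10 were at least 2-fold lower (70%, against 15.1% of all genes), with KLK2 16-fold and SLC45A3 10.3-fold lower. In TR15-MeTA5 none was, so none was called lower in both lines. Limma called none of the 10, with 7 at an unadjusted p under 0.05, against 21.5% of all genes. Of the prostate basal markers, TP63 and COL17A1 were above background on no array, while ITGB4 and CDH3 passed 2-fold upward in each line. The basal regulator TP63, with KRT5 and KRT14, was thus not detected where those markers were higher. Limma called both ITGB4 and CDH3.

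Markers of other cell types were mostly dim. Of 6 fibroblast markers, 5 were above background on no array. Their summed signal was 502 in TR9-MeTA14 -Tet, 540 in TR9-MeTA14 +Tet, 64.8 in TR15-MeTA5 -Tet and 143 in TR15-MeTA5 +Tet, most of it from COL1A1. Of the leukocyte markers, CD68 passed 2-fold upward in each line and PTPRC did not. Of 4 endothelial markers, none was called in both lines, and the summed signal was 466, 473, 335 and 370 in the same order. The part of these signals in the keratin values was not tested.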

How the data were processed

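Total RNA of 4 cultures was labeled with Cy3 and hybridized to Agilent whole human genome arrays. The authors deposited the processed signal intensity of each spot, background-subtracted by Agilent Feature Extraction (version 10.7.3.1 per the file headers, 9.5.1 in the submitters' processing notes) and not normalized between arrays. The series table that the authors also deposited repeats these intensity values on all 44495 rows of each array.

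Here, log2 intensities of the spots of a probe were averaged without outlier spots (between 255 and 344 per array), and the 75th percentile over non-control probes was subtracted. Probes well above background numbered between 20560 and 24217 per array, and no spot was saturated. Where the dimmer array of a pair was not well above background, the fold is a lower bound. It was taken against the probe's signal there or the lowest signal flagged as well above background on that array, whichever was higher. No fold is given where this bound was not above 1, or where neither array was well above background. The SD of a log2 ratio from spots of 1 probe was 0.087, and the spread between cultures is unknown. Probes were named through RefSeq accessions (GRCh38.p14), with 74.5% paired with 1 gene. Folds of at least 2 were counted, with no test within a line. Limma 3.58.1 in R 4.3.3 tested both lines together with line as a block and an intensity trend, on probes that 2 or more arrays placed well above background, with Benjamini-Hochberg adjustment over all of them, and was tested on simulated data. Every keratin above background on at least 1 array is named. Some genes of the marker lists are not reported here. The members, lists and classes were chosen with earlier results of these data known. Alternatives were quantile normalization, normexp (offset 50) with quantile normalization, spike-in scaling, the series table, filters, cut-offs of 1.5-fold and 3-fold, plain ratios, means over a gene's probes, and limma without block or trend. Python 3.11.15 with pandas 2.3.3 was used for the rest.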

Additional observations from a re-analysis of the deposited data

Results flagged for a closer look

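With tetracycline, 5 keratins above background on all 4 arrays rose in TR9-MeTA14 and fell in TR15-MeTA5, each log2 change exceeding 0.087 in size. This cut was the SD of a log2 ratio from spots, and KRT31 and KRT39 passed it only narrowly in TR9-MeTA14. KRT15 (0.15 and -0.04), KRT81 (0.07 and -0.5) and KRT83 (0.81 and -0.06) also had opposite signs, but stayed within this SD in a line. This SD came from repeated spots within an array and does not measure the spread between arrays or cultures. The share of all genes moving this way is not given here. The difference of the 2 log2 changes, TR15-MeTA5 minus TR9-MeTA14, was -2.35 for KRT80 (0.21 and -2.13), -0.59 for KRT8 (0.24 and -0.35), -0.59 for KRT85 (0.16 and -0.43), -0.32 for KRT31 (0.10 and -0.22) and -0.25 for KRT39 (0.10 and -0.15). These differences were not tested, since there was 1 array per condition. Among these 5, the opposite directions held under quantile normalization for KRT8, KRT80 and KRT85, and under normexp for KRT8 and KRT85. With spike-in scaling they held for KRT80 and KRT85, and KRT8 had log2 changes of 0.35 and 0.02.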

How the results depend on the processing

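Keratins at least 2-fold higher in TR9-MeTA14 numbered 2. There was 1 with quantile normalization (KRT26), 0 with normexp, 0 with a filter on all 4 arrays, 1 at 3-fold and 4 at 1.5-fold, and 3 with plain ratios or with means over a gene's probes. The filter leaves KRT24 and KRT26 out by construction, so its count of 0 was fixed in advance. Keratins lower in TR9-MeTA14 numbered 1, and 2 at 1.5-fold. In TR15-MeTA5 the count higher was 0, and 1 with spike-in scaling (KRT20), 2 with plain ratios or with means over probes (KRT1 and KRT20) and 2 at 1.5-fold. The count lower was 2, and 1 with spike-in scaling and at 3-fold (KRT80 in both), and 3 at 1.5-fold. Lower in both lines was 1, and 0 with spike-in scaling, 0 at 3-fold and 2 at 1.5-fold. Between untreated lines, the count higher in TR15-MeTA5 was 2, and 1 with normexp, 0 with spike-in scaling, 0 at 3-fold and 4 at 1.5-fold. The count lower was 0, and 3 with spike-in scaling (KRT7, KRT10 and KRT33A) and 1 with plain ratios (KRT26). Limma called 0 lower, and 1 without a filter (KRT19). Its calls of higher keratins stayed at 0 in each setting run. The cause of these shifts was not tested. KRT19 had a log2 change between -1.77 and -1.58 in TR9-MeTA14 and between -1.22 and -0.85 in TR15-MeTA5, and an adjusted p between 0.0377 and 0.51. Signs changed for KRT78 in TR15-MeTA5 with quantile normalization, for KRT80 in TR9-MeTA14 with normexp, for KRT8 and KRT83 in TR15-MeTA5 with spike-in scaling, and for KRT83 in TR15-MeTA5 with means over probes, among the 20 log2 changes followed. The deposited series table holds the same values and is no test of stability. The line was a block in the limma fit, and without this pairing the adjusted p of KRT19 was 0.51. With 1 array per condition there were no replicates to leave out. Signals near the lowest flagged as above background limit KRT1, KRT13, KRT16, KRT20, KRT23, KRT26, KRT32, KRT33A, KRT74, KRT80 and KRT222.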
